A study of Mus musculus with 5 samples.

Results

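The cytosolic ribosomal protein genes and their pseudogenes were examined in mouse colon spheroids (rounded cultures of colon epithelium). Members were chosen by symbol: every row named Rpl or Rps with a number (with the suffixes a, x, y or l and, for pseudogenes, -ps), together with Rplp0, Rplp1, Rplp2, Rpsa and the pseudogene Gm12191. This gave 93 of the 32793 rows of the tables. Of these, 77 were parent genes (43 of the large 60S subunit, 31 of the small 40S subunit and 3 of the P-stalk), 9 were rows whose symbols mark them as like a parent (Rpl32l and Rps4l among them, which GENCODE lists as pseudogenes), and 7 were rows named or added as pseudogenes. Gm12191 carries no ribosomal name and was added to the rule with its result in these data known.

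Bulk RNA sequencing compared 2 libraries from spheroids expressing Notch dimerization-deficient alleles of both Notch1 and Notch2 (NDD; RA in the sample titles) with 3 libraries from wild-type spheroids (WT). Both groups came from mice of mixed background, mostly C57Bl6 with some FVB. No age, treatment, promoter or Cre driver is given, and the labels do not say whether the libraries came from separate mice, so p-values measure the spread between these libraries, which may be technical. By its title, the study concerns Notch dimerization in intestinal homeostasis.

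Library totals ranged from 19192389 to 23064000 estimated counts, and 13501 rows had enough counts to be tested. No pair of libraries was the same within counting noise. The mean squared difference per gene, in units where counting noise alone gives 1, was 26.3 to 39.9 between WT libraries and 108.6 between the 2 NDD libraries. NDD replicate 1 was nearer to each WT library (35.6 to 69.8) than to NDD replicate 2, which lay 96.01 to 185.3 from the WT libraries, so the NDD libraries did not group together. All 9 epithelial markers examined (such as Epcam, Cdh1 and Krt8) were present, with summed levels of 8360 to 10727 CPM (counts scaled to library size with TMM factors). Fibroblast markers summed to at most 0.932 CPM with Lum at 0 counts, immune markers to at most 5.49 CPM, and endothelial markers to at most 0.187 CPM with Kdr at 0. Neither mutated gene passed the test at the transcript level (edgeR adjusted p 0.584 for Notch1 and 0.504 for Notch2).

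The ribosome joins a small subunit, which reads the mRNA, to a large subunit, which forms the peptide bond. Each of its proteins is normally encoded by 1 active gene in mammals, and the proteins are made in matched amounts. Their mRNAs are short, abundant and begin with a run of pyrimidines through which growth signals acting on mTOR control their translation. Because these mRNAs are so abundant in the germ line, they were often copied back into the genome during evolution. The copies, called processed pseudogenes, lack introns and can remain nearly identical to the parent, so that short reads may match both places.

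The members that passed the test were both such copies. Gm12191 and Rpl34-ps1 were the 2 of 88 tested members with an edgeR adjusted p under 0.05, both higher in NDD, where 0.0667% of all tested rows were called higher, 0.0222% lower and 0.0889% in either direction. The choice of members favours this count: Gm12191 was added with its result known, and Rpl34-ps1 passed the filter on low counts through the NDD libraries alone. Nothing is read from the count against that background. Gm12191 is a processed pseudogene at chr11:49678710-49679057 (minus strand, GRCm38), inside Cnot6 and on the same strand as that gene. Its 348 bases match the coding sequence of Rpl30, a 60S protein gene at chr15:34440505-34443640, with 1 substitution, which leaves the encoded amino acid the same. Of the 318 different 31-base words in Gm12191, 90.25% also occur in Rpl30 transcripts, and every one occurs in some other annotated gene. The count of Gm12191 is therefore uncertain.

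Gm12191 had 2430 and 2741 estimated counts in NDD against 28, 34 and 48 in WT. Both NDD libraries were high, every WT library was at most 2.06 CPM, and the groups did not overlap. The mean ± SD was 117.3 ± 15.6 CPM over the 2 NDD libraries and 1.67 ± 0.340 CPM over the 3 WT libraries. On the log2 scale Gm12191 rose by 6.13 (SE 0.21; edgeR adjusted p 0.00106), or 69.8-fold. Without WT replicate 1 the size was 6.04 and the edgeR adjusted p 0.0528, which misses the threshold. Cnot6, the gene around it, which encodes a deadenylase, averaged 99.3 ± 29.8 CPM (SD) over the NDD libraries against 125.4 ± 9.76 CPM over the WT libraries (log2 fold change -0.34; edgeR adjusted p 0.502).

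Rpl30 itself had 2615 and 3009 counts in NDD and 5053, 5602 and 5692 in WT. Here too the groups were apart, in the opposite direction. Mean levels (± SD) were 127.6 ± 18.8 CPM over the 2 NDD libraries and 250.6 ± 9.53 CPM over the 3 WT libraries. The fitted difference was -0.97 on the log2 scale (SE 0.14). That difference, the most negative of the 77 parent genes, did not pass the test over all rows (edgeR adjusted p 0.104), but DESeq2 called it (adjusted p 1.28e-06).

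The sum of Rpl30 and Gm12191 had 5045 and 5750 counts in NDD and 5081, 5636 and 5740 in WT, so the NDD values spanned the WT range. Its mean was 244.9 ± 34.4 CPM (SD) over the NDD libraries against 252.3 ± 9.33 CPM over the WT libraries. In a fit that replaced each parent row by its family sum, the difference was -0.04 on the log2 scale (SE 0.13; edgeR adjusted p 0.887). Gm12191 held 48.2% and 47.7% of this sum in NDD and 0.551%, 0.603% and 0.836% in WT. The share differed by 47.3 percentage points, and the 2 NDD libraries differed from each other by far less than that. An exact two-sided permutation test gave p = 0.2 (adjusted 0.533 over 8 pseudogene shares), where 0.2 is the smallest p that 2 libraries against 3 allow. This test could not pass at any values, and Gm12191 was added with its result known. Nothing is read from it.

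Rpl34-ps1 lies at chr6:71124610-71124963 (plus strand, GRCm38) and overlaps no other annotated gene. GENCODE lists it as a processed pseudogene and RefSeq as protein coding. Its parent Rpl34 encodes another 60S protein and lies at chr3:130726831-130730398. The 354 bases of the copy differ from the coding sequence of the parent by 2 substitutions, T132C and C318G, neither of which changes the amino acid. In such a token the base of the parent comes first, then the position counted from 1 at the A of its start codon, then the base of the pseudogene. The pair, from GENCODE M21, is printed from position 101 to 354 to show how little tells these rows apart.
Rpl34: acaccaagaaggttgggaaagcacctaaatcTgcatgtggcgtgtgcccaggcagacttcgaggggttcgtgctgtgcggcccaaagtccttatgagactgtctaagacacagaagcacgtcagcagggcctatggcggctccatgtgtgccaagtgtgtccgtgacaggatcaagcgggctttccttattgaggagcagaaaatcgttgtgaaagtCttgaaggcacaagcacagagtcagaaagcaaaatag
Rpl34-ps1: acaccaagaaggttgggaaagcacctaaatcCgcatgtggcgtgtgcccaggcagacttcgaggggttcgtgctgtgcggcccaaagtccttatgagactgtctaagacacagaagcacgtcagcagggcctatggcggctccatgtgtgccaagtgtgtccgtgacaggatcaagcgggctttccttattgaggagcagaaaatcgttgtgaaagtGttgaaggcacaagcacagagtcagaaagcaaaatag
Capitals mark the substituted bases. Of the 31-base words of Rpl34-ps1, 80.86% occur in Rpl34 transcripts, and every one occurs in some other annotated gene.

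Rpl34-ps1 had 1327 and 1422 counts in NDD and 0 in each WT library. WT TPM values (counts scaled for transcript length and library size) were 0.32, 0.29 and 0 beside those counts, the first 2 above 0 although the whole-number count was 0. The mean level of 62.3 ± 6.06 CPM (SD) over the 2 NDD libraries was at least 401.1-fold higher than the floor of 3 counts in the smallest WT library (edgeR adjusted p 0.013, and 0.0597 without WT replicate 1). A row that enters the tested set only through the group where it is high had to differ, so this p adds little to the counts. A count of 0 allows up to 0.155 CPM there. This limit covers counting error only.

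Rpl34 had 3636 and 3661 counts in NDD and 4312, 5518 and 6146 in WT, and the groups did not overlap. It averaged 165.2 ± 8.82 CPM (SD) over the 2 NDD libraries against 243.1 ± 20.2 CPM over the 3 WT libraries, a difference of -0.56 on the log2 scale (SE 0.13). The edgeR adjusted p was 0.293 and that of DESeq2 0.0213. Summed with its copy, the family had 4963 and 5083 counts in NDD and 4312, 5518 and 6146 in WT, and the groups overlapped. For the sum the difference was -0.10 on the log2 scale (SE 0.13; edgeR adjusted p 0.731). The copy held 26.7% and 28.0% of the sum in NDD. Its 0 counts in WT allow a share of up to 0.0696% in the smallest library.

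Another pair divided the WT libraries among themselves. Rpl14-ps1 lies at chr7:45324965-45325617 (plus strand, GRCm38), opposite to the strand of Trpm4, a cation channel gene that spans it. Its parent Rpl14, also a 60S protein gene, lies at chr9:120571444-120574654. Over 651 aligned bases of coding sequence the pair differs by 4 substitutions, C420T, A423G, C569T and A570G, and by 3 bases missing from the copy. Taken alone, C569T changes the encoded amino acid, and each of the other substitutions leaves it the same. The stretch that holds these differences is printed, from position 401 to 600 of the parent and 401 to 597 of the copy, with differing bases in capitals.
Rpl14: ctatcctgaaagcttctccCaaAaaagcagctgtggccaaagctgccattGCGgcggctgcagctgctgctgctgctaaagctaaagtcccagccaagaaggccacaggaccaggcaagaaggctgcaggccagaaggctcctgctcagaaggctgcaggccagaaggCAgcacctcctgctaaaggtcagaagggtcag
Rpl14-ps1: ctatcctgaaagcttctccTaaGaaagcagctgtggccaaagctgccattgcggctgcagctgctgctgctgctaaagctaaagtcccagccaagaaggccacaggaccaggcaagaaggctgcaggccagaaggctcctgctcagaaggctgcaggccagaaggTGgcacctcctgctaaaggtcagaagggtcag
Of the 31-base words of Rpl14-ps1, 85.39% occur in Rpl14 transcripts.

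Rpl14-ps1 had 155 and 14 counts in NDD and 3312, 31 and 5398 in WT. WT replicates 1 and 3 were high, WT replicate 2 lay between the NDD libraries, and the groups overlapped. The copy held 1.76% and 0.177% of the family sum in NDD and 41.9%, 0.292% and 47.5% in WT. Its log2 fold change of -5.17 had an SE of 2.03 and did not pass (edgeR adjusted p 0.437). Leaving out NDD replicate 1 gave -7.67, leaving out NDD replicate 2 gave -4.30, and a replicate block gave -3.70.

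Rpl14 had 8635 and 7883 counts in NDD and 4586, 10581 and 5977 in WT. It was lowest in the 2 libraries where the copy was high. The difference of 0.22 on the log2 scale (SE 0.30; edgeR adjusted p 0.731) was the most positive of the parent genes, and it ranged from 0.05 without WT replicate 1 to 0.61 without WT replicate 2. The sum stood at 384.3 and 369.7 CPM in NDD against 408.9, 466.4 and 487.9 CPM in WT. The sum was lower in both NDD libraries than in any WT library, and differed by -0.27 on the log2 scale (SE 0.13; edgeR adjusted p 0.471), opposite in sign to the row of the parent. Trpm4 stood at 151.7 and 192.7 CPM in NDD against 112.2, 103.3 and 70.3 CPM in WT (edgeR adjusted p 0.351). The labels name a stranded kit, and whether counting used the strand is not stated, so reads from Trpm4 and its antisense copy may not be fully separated.

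**Figure D1:**
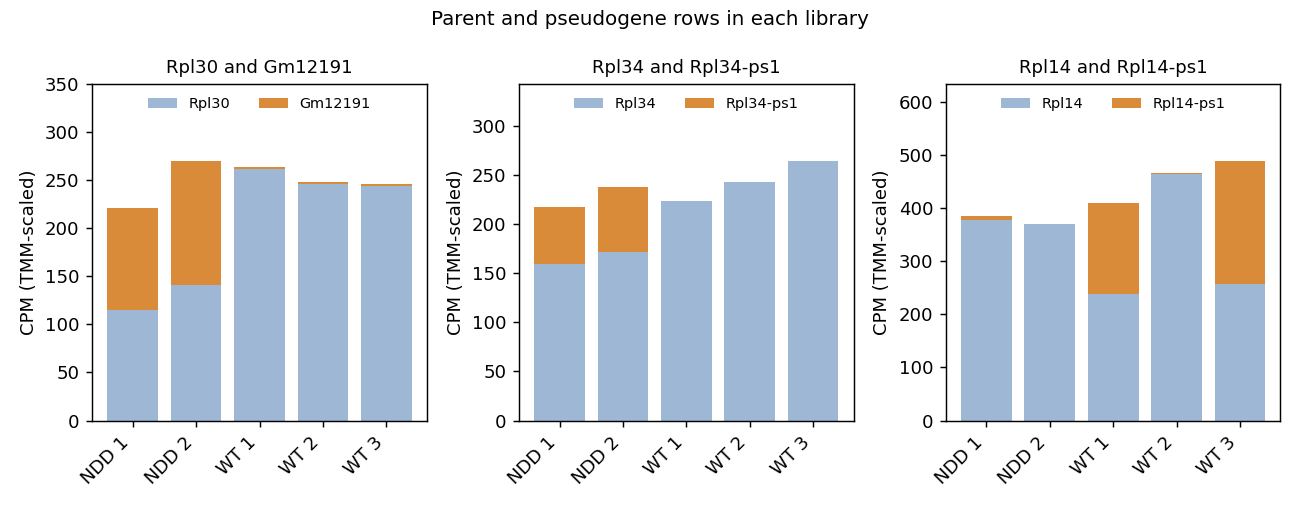
Stacked bars give the CPM (TMM-scaled, axis from 0) of the parent row (blue) and the pseudogene row (orange) in each library for 3 pairs. Gm12191 and Rpl34-ps1 fill part of both NDD bars and little or none of the WT bars, and Rpl14-ps1 fills part of the bars of WT replicates 1 and 3.

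The other pseudogene rows were low. Rps15a-ps4, also known as Lethe, a transcribed pseudogene on chromosome 4, had 64 and 38 counts in NDD and 79, 100 and 184 in WT. Both NDD libraries were below every WT library, but the log2 fold change of -1.25 (SE 0.43) did not pass the test (edgeR adjusted p 0.437). Rps15a-ps6, within Nudcd3 on chromosome 11, had between 33 and 55 counts with overlapping groups. Rps15a, the parent of both and a 40S protein gene, had 3942 and 4435 counts in NDD and 3867, 4574 and 4940 in WT, a difference of -0.11 on the log2 scale (SE 0.13; edgeR adjusted p 0.709) that was 0.02 without NDD replicate 1. Rps19-ps3 and Rpl31-ps12 had at most 6 counts in any library and were not tested.

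Set against other pseudogenes, 0 of the 27 tested rows among 115 further -ps rows were called by edgeR, and the median log2 fold change of the 27 was 0.24. The log2 fold change was above 0 for 20 of the 27, and for 6686 of all 13501 tested rows. The groups were apart with NDD higher in 5 of the 27 and lower in 1, where 15.8% and 16.2% of all rows were. An unadjusted p under 0.05 was found for 4 of the 27, all higher in NDD, where 876 of all 13501 rows were higher at that level. The median over all tested rows was -0.0047. Leading these by level were Oaz1-ps, Pisd-ps3 and Tmem250-ps, with log2 fold changes of -0.23, 0.29 and 0.13.

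All 77 parent genes were tested, and none passed in edgeR. An unadjusted p under 0.05 was found for 3 of them, Rpl30, Rpl34 and Rpl36, all lower, where 632 of all 13501 rows were lower at that level (11.2% in either direction). DESeq2, which called 2.64% of all rows, called 2 of them (Rpl30 and Rpl34). The limma-voom fit, which called 24 of 13501 rows, called 0 of them. In the fit on family sums 0 of 77 passed in edgeR, where 0.0667% of all rows passed (0.0445% higher and 0.0222% lower). An unadjusted p under 0.05 was found for 1 of 77 sums, which was lower, where 629 of 13495 rows were lower at that level (11.1% in either direction). DESeq2 (2.62% of all rows) and limma-voom (22 of 13495 rows) also called 0 families. The parent genes leaned lower as a group: 66 of 77 had a log2 fold change below 0, where 50.5% of all tested rows did, and their median was -0.11. On family sums 67 of 77 were below 0 with a median of -0.10. The groups did not overlap, with NDD lower, in 15 of 77 parent genes (19.5%), near the 16.2% of all tested rows. None was apart with NDD higher, where 15.8% of all rows were (32% in either direction), and both backgrounds were the same for family sums.

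**Figure D2:**
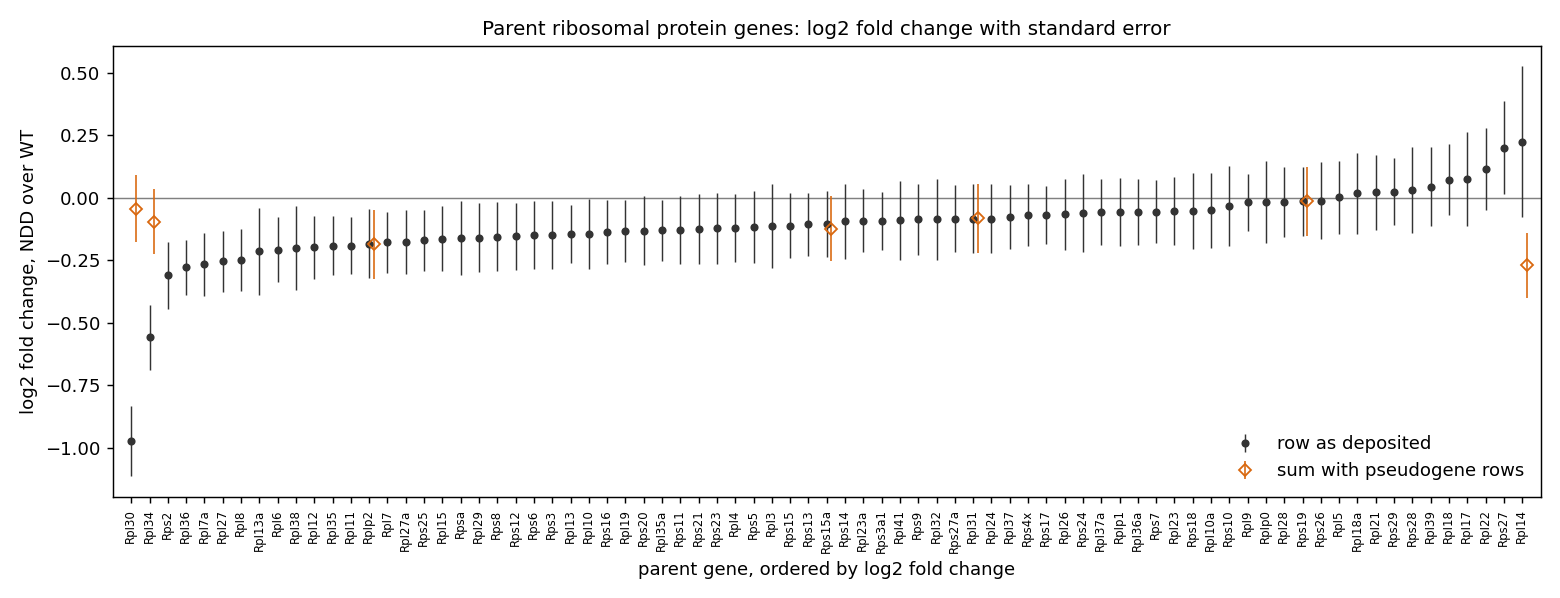
Points give the log2 fold change (NDD over WT) of each parent gene with its standard error, ordered from low to high, and open diamonds give the same for the sum of a parent and its pseudogene rows. Rpl30 (-0.97) and Rpl34 (-0.56) stand below the rest as rows and move to -0.04 and -0.10 as sums, and Rpl14 moves from 0.22 to -0.27.

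In counts, this lean lay mostly in 1 library. In NDD replicate 1, 76 of 77 parent genes lay below their WT mean, with a median difference of -0.22 on the log2 scale. In NDD replicate 2, 38 of 77 did, and the median difference was 0.01. Within WT, replicate 1 was itself below the WT mean in 70 of 77 parent genes (median -0.08), and WT replicates 2 and 3 were at 0.05 and 0.02. Each WT library is part of that mean, which makes its difference smaller, and the NDD libraries are not. The WT and NDD differences are therefore not on a like footing. Leaving out NDD replicate 1 moved the median log2 fold change to 0.0077, and leaving out NDD replicate 2 moved it to -0.21. Parent genes took 4.06% and 4.48% of all counts in NDD and 4.41%, 4.82% and 4.81% in WT, so that NDD replicate 2 lay within the WT range and NDD replicate 1 below it. Of all TPM they took 12.2% and 13.2% in NDD and 13.5%, 14.3% and 14.5% in WT, so that on this scale both NDD libraries were below every WT library. Cycling-cell markers showed another order: their sum was 1865 and 790.6 CPM in NDD and 1802 to 2116 CPM in WT, and all 8 had a log2 fold change below 0 with 0 called. The part of cycling cells in the ribosomal values was not tested. In bulk RNA, fewer cells of a type and less RNA per cell cannot be told apart.

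**Figure D3:**
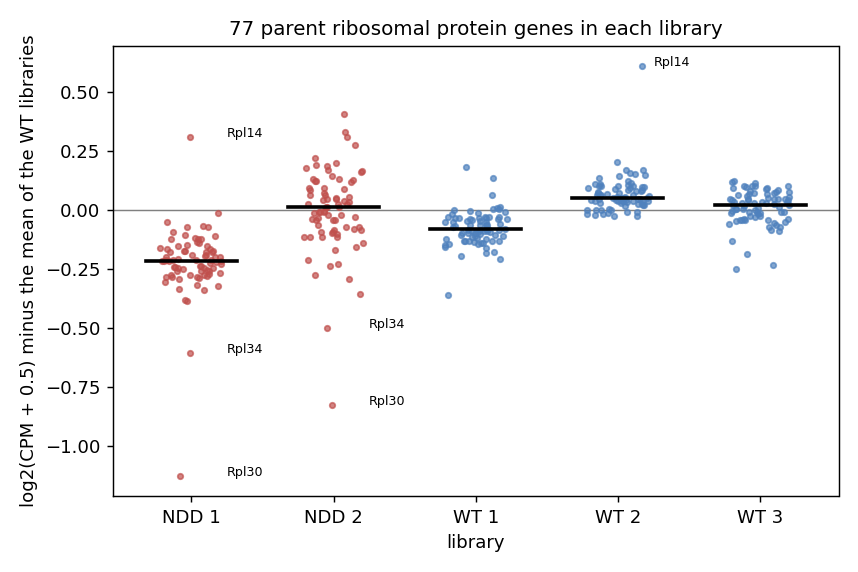
Each point is 1 of 77 parent genes, plotted as log2(CPM + 0.5) minus the mean of the 3 WT libraries, by library, with the median as a bar. NDD 1 is shifted to -0.22 as a whole while NDD 2 is centred at 0.01 with a wider scatter, and Rpl30, Rpl34 and Rpl14 are labelled where they lie far from the median of their library.

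Relative to the median parent gene of the same library, most members kept their proportion. The SD of that relative level over the 5 libraries had a median of 0.074 on the log2 scale and was lowest for Rps15, a 40S protein gene, at 0.012. It exceeded 0.2 in 3 genes, Rpl30 (0.49), Rpl14 (0.40) and Rpl34 (0.26), the parents of the copies above. As family sums, these 3 had SDs of 0.11, 0.14 and 0.075, and no family exceeded 0.2. Rps27, whose protein belongs to the 40S subunit, was then the most variable (0.20), followed by Rpl38 (0.19) and Rpl39 (0.18) of the 60S subunit.

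Among 60S genes the log2 fold changes ran from -0.97 (Rpl30) to 0.22 (Rpl14), with a median of -0.11. Rpl36 had 149.5 and 149.6 CPM in NDD and 181.9, 185.7 and 176.02 CPM in WT. The groups were apart and the NDD values close together, and differed by -0.28 on the log2 scale (SE 0.11; edgeR adjusted p 0.439). Of the 31-base words of Rpl36, 94.05% occur in other annotated genes and 0% in a gene with another row of the tables. Its count is uncertain with regard to genes without a row. Rpl22 (0.12, SE 0.16) and Rpl17 (0.07, SE 0.19) were among the 4 most positive parents, with edgeR adjusted p of 0.739 and 0.858. Both turned below 0 without NDD replicate 2, at -0.12 and -0.18, and Rpl17 also did with a replicate block, at -0.0074.

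For 40S genes the median was also -0.11, from -0.31 (Rps2) to 0.20 (Rps27). Rps2, which encodes a protein near the mRNA entry channel, had 2059 and 2278 CPM in NDD and 2529, 2679 and 2854 CPM in WT. No NDD library reached the lowest WT library, and the log2 fold change of -0.31 (SE 0.13) had an edgeR adjusted p of 0.46. Rps27 had 244.7 and 327.7 CPM in NDD and 215.6, 285.1 and 246.1 CPM in WT, with overlapping groups. Its difference of 0.20 on the log2 scale (SE 0.19; edgeR adjusted p 0.621) was -0.01 without NDD replicate 2.

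The 3 P-stalk genes, whose acidic proteins recruit translation factors to the large subunit, overlapped between groups. Rplp0 averaged 2280.1 ± 418 CPM (SD) over the NDD libraries against 2305 ± 182 CPM over the WT libraries, a difference of -0.02 on the log2 scale (SE 0.16). Leaving out NDD replicate 2 gave -0.20 and leaving out NDD replicate 1 gave 0.16. Rplp0 was also above 0 without WT replicate 2 or 3 (0.02 for both), with a replicate block (0.01) and with upper-quartile factors (0.008). Rplp1 (-0.06, SE 0.14) and Rplp2 (-0.18, SE 0.14) were likewise not called, with edgeR adjusted p of 0.851 and 0.564. Rplp1 was at 0.0065 without WT replicate 3 and 0.0098 with a replicate block. Rplp2 was at -0.06 without NDD replicate 2 and -0.30 without NDD replicate 1.

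TPM values spread widely across parent genes, and they depend on the transcript length used for each gene. Mean TPM over the 5 libraries had a median of 1595 across parent genes, and 58 of 77 lay above 1000. The highest were Rpl41 (5702 TPM), Rps26 (5303), Rps2 (4997), Rplp1 (3910), Rpl28 (3615) and Rpl35 (3198). Neighbours in this order overlapped in their spread, as Rpl41 ranged from 4985 to 6114 TPM and Rps26 from 4692 to 5629 TPM. None of these 6 was called, and their log2 fold changes ran from -0.31 (Rps2) to -0.01 (Rps26). Without NDD replicate 1 those of Rpl41, Rps26 and Rpl28 were above 0, at 0.09, 0.17 and 0.12. Rps26 and Rpl28 were also above 0 without WT replicate 2 (0.04 for both) and with upper-quartile factors (0.01 and 0.0086). At the low end stood Rpl22 (170.7 TPM), Rps20 and Rps15a (64.4 TPM). Rps15a had about as many counts as Rpl34, and its TPM was lower than that of Rpl34 in every library. In NDD replicate 1, Rps20 had 5852 counts at 129.8 TPM and Rpl34 3636 counts at 870.6 TPM. Within a library, TPM departs from the order of counts only through the transcript length used, which is not given here. The low TPM of Rps15a and Rps20 is therefore not read as low expression.

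**Figure D4:**
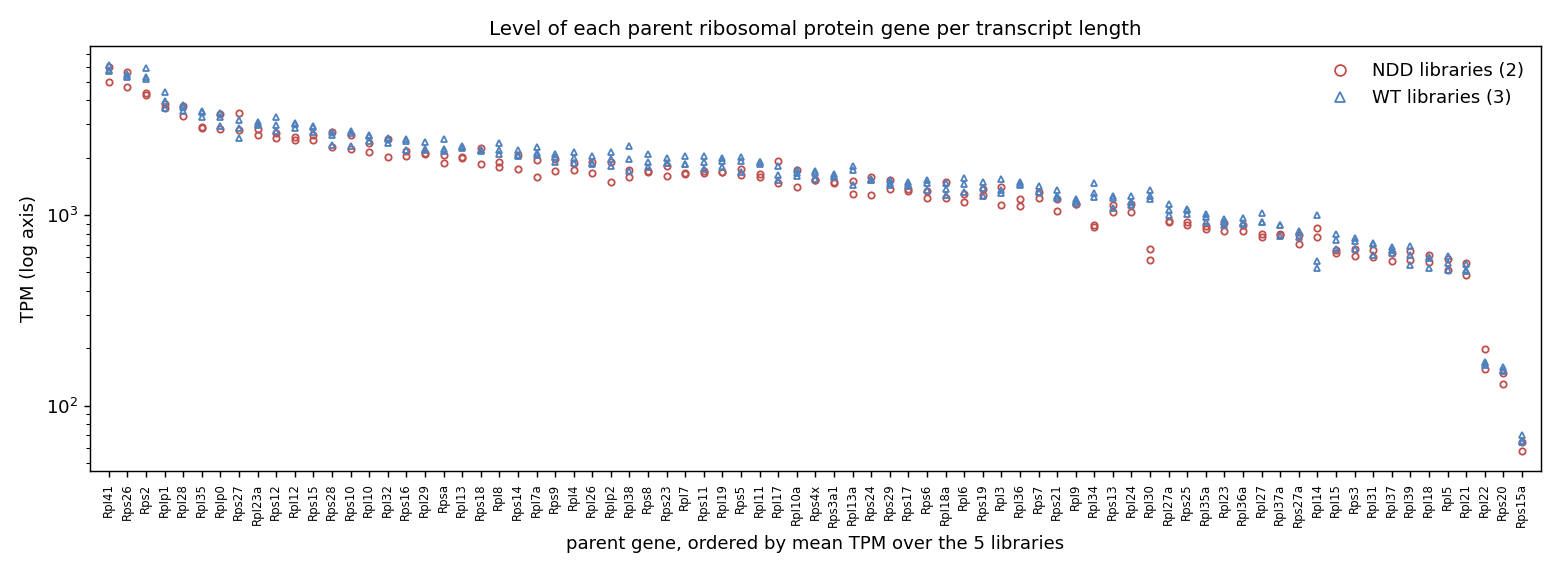
TPM (log axis) of each parent gene in the 2 NDD libraries (circles) and 3 WT libraries (triangles), ordered by the mean. Levels run from Rpl41 (5702 TPM) down to Rpl21 (523.9 TPM) and lower, with Rpl22, Rps20 and Rps15a (64.4 TPM) at the end. The circles part from the triangles at Rpl30 and Rpl34, and also at other genes such as Rps2, Rpl35 and Rpl12.

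Rows that resemble a parent by symbol had mean levels of at most 632.2 TPM (Rpl36al). Rpl3l, a heart and muscle form, and Rpl10l, a testis form, had 0 counts in every library, and Rpl39l had 1 count in 1 library. Of the 6 tested, 5 were lower in NDD without overlap and 0 were called by edgeR, DESeq2 or limma-voom (0 at an unadjusted p under 0.05 in edgeR). These 5 make 83.3%, against 16.2% of all tested rows. Rpl22l1, a paralog that can stand in for Rpl22, had 19.2 and 19.1 CPM in NDD against 21.2, 26.6 and 26.3 CPM in WT, a difference of -0.37 on the log2 scale (SE 0.16; edgeR adjusted p 0.46).

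Rpl7l1 was at 100.4 and 67.5 CPM in NDD and 103.6, 105.4 and 124.4 CPM in WT. The difference was -0.40 on the log2 scale (SE 0.20; edgeR adjusted p 0.472). It depended on NDD replicate 2, at -0.13 without that library and -0.72 without NDD replicate 1 (edgeR adjusted p 0.0474). The latter fit has 1 NDD library, assumed to vary like WT, and called 1198 of all 13501 rows. Rps27l, which is known as a p53 target, had 60.5 and 57.4 CPM in NDD and 71.1, 65.2 and 73.6 CPM in WT (log2 fold change -0.25, SE 0.12, edgeR adjusted p 0.476). Rpl36al had a log2 fold change of -0.23 (SE 0.12). Rpl32l, a processed pseudogene in GENCODE and protein coding in RefSeq, was at -0.31 (SE 0.33) with at most 66 counts. Rps4l, a transcribed pseudogene in both annotations, was at 0.23 (SE 0.40), the only one of the 6 above 0, with overlapping groups, and was at -0.07 without WT replicate 3, -0.05 without NDD replicate 2 and -0.09 with a replicate block.

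Promoter sequence, which the rule did not use, was searched for 4 features, with no test of enrichment. RefSeq start sites (GRCm38.p6, 250 bases before to 50 after) were at hand for 57 of the 77. A start tract, meaning a C followed by at least 4 bases that are C or T and beginning within 5 bases of the annotated start, was found in 27 (47.4%), against 21.2% of all 27025 genes in that table. The ETS-type word CCGGAAGT occurred on either strand in 19.3% against 4.31%, the YY1-type word AAGATGGC in 8.77% against 3.19%, and TATAAA in 10.5% against 15.7%. These are letter matches, not sites of binding. The 60 bases around the start are printed for 3 parents named above, with the tract in capitals, at chr9:120571477-120571536 (plus strand), chr7:4792925-4792984 (plus strand) and chr10:128626487-128626546 (minus strand).
Rpl14: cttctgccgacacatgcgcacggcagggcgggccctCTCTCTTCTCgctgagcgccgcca
Rpl28: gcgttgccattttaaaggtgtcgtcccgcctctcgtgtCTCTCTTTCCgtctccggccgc
Rps26: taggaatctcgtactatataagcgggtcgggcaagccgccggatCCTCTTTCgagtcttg
Parent genes lie on 19 chromosomes, with 14 of them on chromosome 7. At least 50% of the 31-base words occur in another annotated gene for 6 of them (Rpl19, Rpl23a, Rpl24, Rpl36, Rplp1 and Rps3a1). Their counts are uncertain with regard to genes without a row, since 0% of their words occur in a gene with another row of the tables. Among parents that second share was highest for Rps2 (42.15%), whose count is uncertain too. A smaller share in other annotated genes does not make a count certain: it was 12.7% for Rpl30, 10.4% for Rpl34 and 30.7% for Rpl14.

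Genes around the ribosome gave the following. Fau, which encodes a 40S protein fused to a ubiquitin-like protein, had a log2 fold change of 0.17 (SE 0.20), and Rack1, a signalling scaffold on the 40S subunit, -0.10 (SE 0.15). Neither passed in edgeR. Of 19 other translation genes, listed because their mRNAs are known for such a tract (not checked here), 0 passed in edgeR, 5 had an unadjusted p under 0.05, all lower (all rows: 11.2% in either direction, 632 of 13501 lower), and the median was -0.11. The groups were apart with NDD lower in 8 of the 19 (42.1%) and with NDD higher in 0, where 16.2% and 15.8% of all rows were. The most abundant, the elongation factors Eef1a1 (-0.04, SE 0.16) and Eef2 (0.05, SE 0.21) and the growth-related Tpt1 (0.10, SE 0.13), had overlapping groups. Of 17 regulators of such mRNAs, 0 passed and 0 had an unadjusted p under 0.05 in edgeR (median -0.07). The most abundant were the translation repressors Eif4ebp1 (0.36, SE 0.45) and Eif4ebp2 (-0.23, SE 0.12) and the transcription factor Myc (-0.27, SE 0.19). For comparison, 0 of 78 mitochondrial ribosomal protein genes passed in edgeR and 3 had an unadjusted p under 0.05, all lower, against 632 lower of 13501 rows. Their median was -0.17, with 65 below 0, and the groups were apart with NDD lower in 31 of 78 (39.7%) and with NDD higher in 3.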

How the data were processed

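Polyadenylated RNA of 5 spheroid cultures was sequenced with a stranded kit, per the labels' protocols. Per the submitters' processing notes, Bowtie2, RSEM and the build mm10 were used (versions and annotation not given in the sources used here). One table holds estimated counts for each gene. The authors deposited these estimated counts as whole numbers without normalization. The other holds TPM, scaled by the authors for transcript length. The handling of reads shared between a parent and a copy is not stated, so the split between them is uncertain. All 10 value columns matched a sample title and 0 were left over.

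Groups and replicate numbers came from the titles. The counts of all rows were fitted with edgeR 4.0.16 (quasi-likelihood, robust, TMM, filterByExpr, R 4.3.3), with an adjusted p (Benjamini-Hochberg over all tested rows) under 0.05 called. The log2 fold change has WT as its base and a prior count of 0.125, and SE is the size of the change over the square root of F. CPM uses TMM-scaled library sizes. A second fit replaced each parent by its sum with its -ps rows (Rplp2-ps1, outside the symbol rule, included). Gm12191 was put with Rpl30 by alignment (Biopython 1.88) of GENCODE M21 sequences, since no table names its parent. Alleles of the mice themselves were not analysed here. Exact tests used scipy 1.17.1. DESeq2 1.42.0 and limma 3.58.1 (voom on counts, and log2(TPM + 1) or log2(TPM + 0.1)) were alternatives, as were RLE and upper-quartile factors, TMM without the members, other filters, a non-robust prior, a replicate block and leaving out each library. The code was tested on simulated counts.

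Members and lists were chosen with earlier results of these data known. Some list genes and a sequence are not reported here. Named were members called in either fit, the 6 parents with the highest TPM, the 4 largest rises and falls among parents with a mean log2 CPM of at least 2, pseudogenes with at least 10 counts in a library and their parents, the like genes (with Rpl32l placed there after its annotation was seen) and the P-stalk. From the other lists, the 3 most abundant genes were named. Cnot6, Trpm4, Nudcd3, Rps15, Rps20, Rpl21, Rpl38, Rpl39, Rpl31-ps12, Rps19-ps3 and the genes with shared words were named after their values were seen.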

Additional observations from a re-analysis of the deposited data

How the results depend on the processing

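The 2 called rows, Gm12191 and Rpl34-ps1, kept their direction wherever they were tested. Their counts lay so far apart between the groups that no setting used could have reversed it. The kept direction therefore adds nothing to the counts. The number of called members was 4 with DESeq2, which added Rpl30 and Rpl34 as lower and called 2.64% of all rows. It was 1 under a minimum of 10 counts in each library, which leaves out Rpl34-ps1 by construction and called 4 of 12295 rows. It was 3 with no filter on low counts, which added Rpl30 and called 0.302% of all rows. With single libraries left out it ranged from 0 (without WT replicate 1, where 0 of all 13501 rows were called, 6 members had an unadjusted p under 0.05 and adjusted p rose to 0.0528 and 0.0597 for the 2 rows) to 4 (without NDD replicate 1, which leaves 1 NDD library assumed to vary like WT and called 1198 of all 13501 rows, a larger share than among the members). No family sum was called in any of the 15 edgeR, DESeq2 and limma-voom fits, but some of these fits called almost nothing. With WT replicate 1 or WT replicate 3 left out, 0 of all 13495 rows were called, and with WT replicate 2 left out 2 were. Under the minimum of 10 counts in each library 0 of 12290 rows were called. In such fits the lack of a called family says little about the families. The median log2 fold change of the parent genes ranged from -0.21 (without NDD replicate 2) to 0.0077 (without NDD replicate 1). It was -0.06 without WT replicate 2 and lay from -0.14 to -0.08 under the remaining alternatives. The parent share of counts was 0.409 percentage points lower in NDD (from -0.617 without NDD replicate 2 to -0.202 without NDD replicate 1), and on TPM the difference was -1.38 percentage points, where the unit itself is another. The denominator without mitochondrially encoded genes was not run, because 0 row symbols begin with mt-. Replicate numbers are shared between groups, but the labels tie them to no litter, batch or day, and deviations of same-numbered libraries correlated at -0.0095 and 0.353. These 2 pairs do not settle whether the numbers pair the libraries, and the main test uses no block. Under the replicate block 2 members were called, the same 2 rows, and 0 family sums, where 0.244% and 0.207% of all rows were called. At these depths a count of 0 limits a row to at most 0.155 CPM in the smallest library.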
